A study of Mus musculus with 20 samples.

Results

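The Cyp4 genes encode cytochrome P450 enzymes that hydroxylate fatty acids. Examined here were 10 members of the family, namely Cyp4a10, Cyp4a12a, Cyp4a12b, Cyp4a14, Cyp4a31, Cyp4a32, Cyp4b1, Cyp4f14, Cyp4f15 and Cyp4v3, and they were picked out by gene symbol from the 55401 genes of the count table, with earlier results of these data known. All 10 were found, each once, and the same table holds 18 other Cyp4 genes and pseudogenes. RNA-seq libraries came from the liver, kidney, small intestine, spleen and heart of wild-type (WT) mice and of Nsun6-KO mice, with 2 libraries per organ and genotype, or 20 in all. Nsun6 is an RNA methyltransferase that places 5-methylcytosine on messenger RNA. Both groups were 8-week-old females, the KO strain was made in C57BL/6J eggs by CRISPR/Cas9 removal of exons 3 and 4 of Nsun6, and no treatment was given. The study calls the libraries of a group biological replicates, and nothing says whether 1 mouse gave several organs or how many mice a library holds, so p-values measure the spread between these libraries. Library totals ranged from 15897446 counts in heart KO replicate 1 to 44508197 in liver KO replicate 2, with a median of 28513950.

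Cyp4 enzymes add a hydroxyl group to the terminal (omega) carbon of a fatty acid or eicosanoid, with electrons passed on by P450 oxidoreductase and cytochrome b5. The products are oxidized further to dicarboxylic acids by alcohol and aldehyde dehydrogenases, and are then shortened in peroxisomes. Cyp4a10 and Cyp4a14 are classical targets of PPARalpha, the nuclear receptor that senses fatty acids during fasting. Cyp4a12a makes a vasoactive hydroxylated arachidonic acid in the kidney and is known to be far higher in males than in females. Cyp4f14 and Cyp4f15 act on leukotriene B4 and related lipids, Cyp4b1 also activates plant furans and is abundant in lung, and Cyp4v3 is the mouse counterpart of the gene mutated in Bietti crystalline dystrophy of the retina.

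The members lie in a few clusters of the genome (GRCm38, GENCODE vM21). Cyp4a12a, Cyp4a12b, Cyp4a14, Cyp4a10, Cyp4a31, Cyp4a32 and Cyp4b1 lie in this order on chromosome 4, from the start of Cyp4a12a at 115299046 to the end of Cyp4b1 at 115647723. Cyp4a10 spans chr4:115518264-115533649, Cyp4a31 chr4:115563649-115579015 and Cyp4a32 chr4:115600969-115621602, all on the plus strand, whereas Cyp4a14 (chr4:115486200-115496142) and Cyp4b1 (chr4:115624725-115647723) are on the minus strand. Cyp4f15 (chr17:32685627-32703352, plus strand) and Cyp4f14 (chr17:32905070-32917342, minus strand) share chromosome 17. Cyp4v3 (chr8:45304944-45333216, minus strand) stands alone, and shares 313 exon bases with the predicted gene Gm45753 on the same strand, so that reads in this stretch cannot be assigned to either gene.

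Several Cyp4a genes are near-identical copies whose organ use differs below, so a stretch of their coding exons is shown. Each is 60 bases, written 5′ to 3′ on the plus strand from the GRCm38 genome, with capitals at the bases that differ within the set. The first set is Cyp4a10 (chr4:115519654-115519713), Cyp4a31 (chr4:115565034-115565093) and Cyp4a32 (chr4:115602284-115602343).
Cyp4a10: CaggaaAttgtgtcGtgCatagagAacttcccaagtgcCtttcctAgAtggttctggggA
Cyp4a31: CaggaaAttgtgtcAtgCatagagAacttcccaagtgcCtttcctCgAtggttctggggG
Cyp4a32: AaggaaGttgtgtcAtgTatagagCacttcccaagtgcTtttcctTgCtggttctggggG
The second set is Cyp4a12a (chr4:115326628-115326687) and Cyp4a12b (chr4:115432881-115432940).
Cyp4a12a: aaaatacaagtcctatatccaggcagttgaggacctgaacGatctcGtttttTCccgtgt
Cyp4a12b: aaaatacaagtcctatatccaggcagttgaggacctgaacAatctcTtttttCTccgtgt
In these windows Cyp4a31 differs from Cyp4a10 at 3 bases and Cyp4a32 at 9, and Cyp4a12b differs from Cyp4a12a at 4. Over the whole coding sequence the identity was 96.6% between Cyp4a10 and Cyp4a31, 97.2% between Cyp4a10 and Cyp4a32 and 98.5% between Cyp4a12a and Cyp4a12b, against 75.4% between Cyp4a10 and Cyp4a14 and 82.1% between Cyp4f14 and Cyp4f15. Of the transcript stretches of 100 bases, 12.2% in Cyp4a10, 7.33% in Cyp4a31, 18.2% in Cyp4a32, 35.8% in Cyp4a12a and 36.2% in Cyp4a12b also occur in a relative. Values of these 5 genes are therefore uncertain to the extent that reads from the shared stretches were left uncounted or assigned to the wrong copy. Cyp4b1 shared 3.4% of its stretches, mainly with the pseudogene Cyp4b1-ps1, and no such stretch was shared by Cyp4a14, Cyp4f14 or Cyp4f15.

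The organ labels were checked against marker genes before the Cyp4 values were read. Alb, the serum albumin gene, stood between 129457 and 201296 TPM in the 4 liver libraries, and Kap, a kidney tubule gene, between 80007 and 134497 TPM in the 4 kidney libraries. TPM is the count divided by gene length and scaled to the same sum in each library, so that different genes can be compared. By gut position markers, the small intestine libraries fell apart by replicate number and not by genotype. Fabp6, the bile acid binding protein of the ileum, was at 39675 TPM in WT replicate 1 and 37793 in KO replicate 1 but at 1.08 and 2.01 in the replicates numbered 2. Pdx1, a transcription factor of the duodenum, was at 0 in both replicates numbered 1 and at 94.3 and 70.5 TPM in WT and KO replicate 2. The libraries numbered 1 thus carry distal and those numbered 2 proximal marker genes, and single-library values of the small intestine are given below with their number, while means over its 4 libraries pool both positions. Summed over 6 smooth muscle markers, the small intestine held 275 and 360 TPM in WT replicates 1 and 2 and 2698 and 1160 in KO replicates 1 and 2, with all 6 detected in every library and Actg2 or Acta2 the most abundant. One spleen library, WT replicate 2, also stood apart, with 7631 TPM summed over 12 hepatocyte markers, led by Alb at 4498 TPM, against 30.9, 262 and 367 in WT replicate 1 and KO replicates 1 and 2.

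Nsun6 itself was counted over the whole gene, so that its count does not test for the loss of exons 3 and 4. Its level in WT replicates 1 and 2 and KO replicates 1 and 2 was 2.86, 1.45, 1.24 and 1.37 TPM in the liver and 4.09, 2.57, 2.26 and 1.90 in the kidney. Small intestine libraries held 5.48, 2.70, 5.59 and 2.44 TPM of it, spleen libraries 4.84, 3.42, 2.91 and 4.88, and heart libraries 3.11, 3.74, 2.41 and 3.27. In liver and kidney each KO library was lower than either WT library, while the genotypes overlapped in the other organs. On normalized counts, 16.9% of the genes tested in the liver and 10.6% in the kidney were likewise lower in both KO libraries.

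The first question was which Cyp4 genes each organ uses. The summed level of the 10 genes was 2085 ± 578 TPM in the liver, 2027 ± 601 in the kidney and 1325 ± 354 in the small intestine (SD, n = 4 libraries of both genotypes). The single libraries ranged from 1407 to 2815, from 1140.4 to 2468 and from 847 to 1613 TPM in the same order, so that these organs overlapped, and the totals were not tested. The spleen, at 65.2 ± 63.4 TPM, and the heart, at 38.6 ± 10.7, held far less. In the spleen 160.3 TPM came from WT replicate 2, the library with hepatocyte markers, and the other 3 libraries lay between 30.1 and 35.3. The genes behind these totals differed by organ: Cyp4a10 and Cyp4a14 led in the liver and the kidney, Cyp4f14 in the small intestine, Cyp4b1 in the heart.

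**Figure D1:**
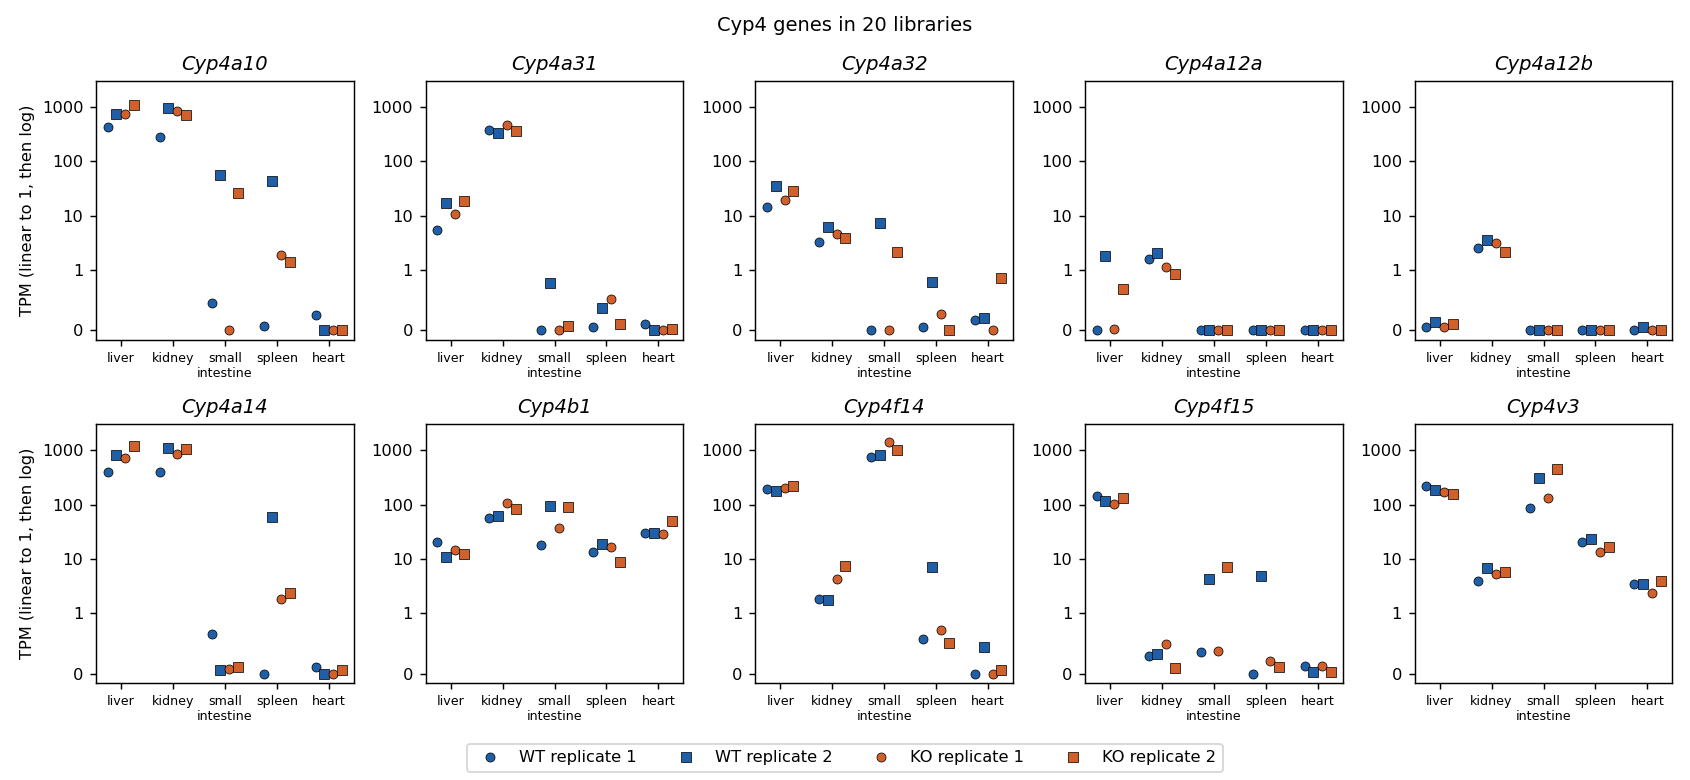
Level of each Cyp4 gene (TPM, on an axis that is linear up to 1 and logarithmic above) in each of the 20 libraries, by organ, with colour for genotype and shape for replicate number. Cyp4a10 and Cyp4a14 were high in both liver and kidney, Cyp4a31 was at least 339 TPM in the kidney and at most 18.4 elsewhere, and Cyp4f14 was at least 741 TPM in the 4 small intestine libraries.

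Cyp4a10 and Cyp4a14, the fasting-responsive omega-hydroxylases, were at like levels in liver and kidney. Cyp4a10 stood in the liver at 421 and 744 TPM in WT replicates 1 and 2 and at 753 and 1073 in KO replicates 1 and 2. In the kidney the same order gave 286, 942, 837 and 703 TPM. Cyp4a14 stood at 389, 828, 723 and 1176 TPM in the liver and at 405, 1103, 862 and 1044 in the kidney. The organs overlapped for both genes, and in either organ WT replicate 1 was the lowest library for both. The ratio of Cyp4a10 to Cyp4a14 varied less than the levels did: it was 0.984 ± 0.0932 in the liver and 0.801 ± 0.138 in the kidney (ratio of TPM, SD, n = 4).

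Cyp4a31 and Cyp4a32, the near copies of Cyp4a10, went opposite ways. Cyp4a31 stood at 381, 339, 460 and 367 TPM in the kidney (WT 1, WT 2, KO 1, KO 2) and at 5.49, 17.2, 10.9 and 18.4 in the liver. Cyp4a32 stood at 14.3, 35.1, 19.7 and 27.9 TPM in the liver and at 3.24, 6.12, 4.51 and 3.87 in the kidney. For both genes the 4 libraries of one organ lay outside the range of the other. Cyp4a10 exceeded Cyp4a31 by 61.8 ± 14.6-fold in the liver but by only 1.82 ± 0.832-fold in the kidney (ratio of TPM, SD, n = 4), and in kidney WT replicate 1 Cyp4a31 was the higher of the pair.

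Cyp4a12a and Cyp4a12b, the male-biased members, were low in the kidney of these female mice, and Cyp4a12b was near the detection limit in the liver, with 2, 4, 2 and 5 counts. Cyp4a12a reached 1.61, 2.07, 1.14 and 0.930 TPM in the kidney (36, 55, 27 and 22 counts) and 0, 1.85, 0.0308 and 0.684 in the liver (0, 56, 1 and 30 counts). Cyp4a12b reached 2.58, 3.62, 3.19 and 2.14 TPM in the kidney (57, 95, 75 and 50 counts) and at most 0.134 in the liver. Neither gene had a count in any library of the small intestine or the spleen. Against the floor of 3 counts over the 4 small intestine libraries, Cyp4a12a was at least 52.5-fold higher in the kidney and at least 23.8-fold higher in the liver, and Cyp4a12b was at least 104-fold and 3.46-fold higher (CPM, counts scaled by the library total alone). Without liver WT replicate 2 the liver bound of Cyp4a12a was 8.94-fold.

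**Figure D2:**
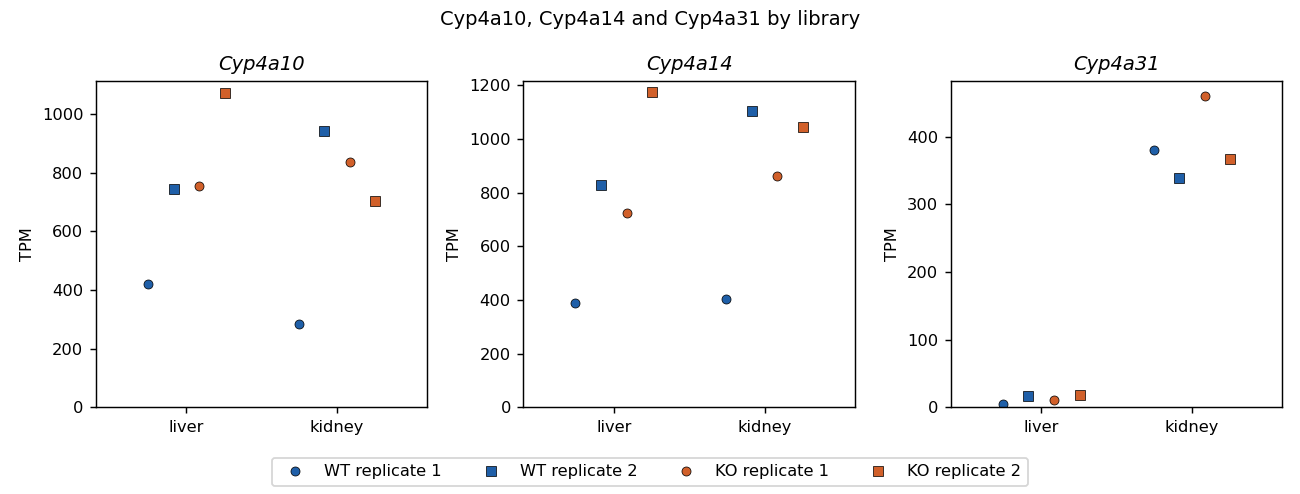
Cyp4a10, Cyp4a14 and Cyp4a31 (TPM, linear axes from 0) in each liver and kidney library, with colour for genotype and shape for replicate number. The organs overlapped for Cyp4a10 and Cyp4a14, with WT replicate 1 lowest in each, whereas Cyp4a31 was at most 18.4 TPM in the liver and at least 339 in the kidney.

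Cyp4b1 was most abundant in the kidney and the small intestine. Its level was 55.6, 62.8, 106.8 and 82.4 TPM in the kidney and 18.1, 92.3, 37.6 and 90.5 in the small intestine, where the replicates numbered 2 were the higher ones. The liver held 20.03, 10.9, 14.4 and 12.1 TPM, the heart 30.3, 30.2, 28.6 and 49.5 and the spleen 13.6, 19.1, 16.4 and 8.79. In the order kidney, small intestine, heart, spleen and liver, neighbours overlapped except heart and spleen.

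Cyp4f14, a leukotriene B4 omega-hydroxylase, was the leading Cyp4 gene of the small intestine and was nearly absent from the kidney. It stood at 741, 802, 1401 and 1028 TPM in the small intestine, at 192, 180.3, 205 and 219 in the liver and at 1.83, 1.77, 4.21 and 7.40 in the kidney. These 3 organs did not overlap. Its neighbour Cyp4f15 was a liver gene, at 143, 117, 103 and 134 TPM there, with 0.355, 4.25, 0.368 and 6.96 in the small intestine and at most 0.491 in the kidney. Cyp4f14 exceeded Cyp4f15 by 1.62 ± 0.267-fold in the liver (ratio of TPM, SD, n = 4), and in the single small intestine libraries by 148-fold in KO replicate 2 to 3813-fold in KO replicate 1.

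Because the pair of Cyp4f genes differ so much in the intestine, their promoters are shown (RefSeq, GRCm38.p6, from 250 bases before to 50 after the annotated start, 5′ to 3′ on the gene's strand). Of the 10 members, 5 were matched in the RefSeq promoter table used here. Capitals mark ATTGG, the reverse complement of the CCAAT motif. The Cyp4f15 window is chr17:32685409-32685708, and for Cyp4f14, which has several annotated starts, the one farthest upstream is given, chr17:32917307-32917606.
Cyp4f15: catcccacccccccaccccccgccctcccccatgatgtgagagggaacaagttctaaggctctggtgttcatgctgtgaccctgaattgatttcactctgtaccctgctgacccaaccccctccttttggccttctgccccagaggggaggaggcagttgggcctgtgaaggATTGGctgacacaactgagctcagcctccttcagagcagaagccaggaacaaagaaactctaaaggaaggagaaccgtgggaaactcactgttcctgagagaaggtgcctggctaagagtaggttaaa
Cyp4f14: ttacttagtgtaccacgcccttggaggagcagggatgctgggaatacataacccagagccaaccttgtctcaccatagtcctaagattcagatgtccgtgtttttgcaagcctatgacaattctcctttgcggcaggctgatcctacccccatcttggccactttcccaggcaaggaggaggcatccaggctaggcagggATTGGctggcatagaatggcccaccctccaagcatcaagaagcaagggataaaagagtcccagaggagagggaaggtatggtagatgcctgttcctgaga
Both windows hold the letters ATTGG, 78 bases before the Cyp4f15 start and 50 before this Cyp4f14 start, a distance that changes with the start chosen. Searched on both strands, CCAAT was found in 37.4% of 32851 RefSeq promoters of this length, so the shared match is common. TATAAA was found in 13.6% of promoters and in neither of these, and likewise with up to 2 mismatches the DR1 repeat bound by PPARalpha (3.86% of promoters) and the HNF1 motif (1.36%). A match describes letters only.

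Cyp4v3 was shared by the small intestine and the liver. Its level was 86.1, 306, 133 and 458 TPM in the small intestine and 222, 188, 168 and 154 in the liver, and the ranges overlapped. The spleen followed with 20.9, 23.3, 13.3 and 16.8 TPM, and the kidney, with 3.98, 6.86, 5.30 and 5.78, lay below the spleen without overlap.

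The organ differences were then tested with edgeR's quasi-likelihood test in 1 fit of the 20 libraries, each organ averaged over genotypes, with p-values adjusted by the Benjamini-Hochberg method over 23159 genes. A gene was called at an adjusted p under 0.1 and a fold over 2, and differences are log2 values on TMM-normalized counts. Of all genes tested, 13.6% were called higher and 21.1% lower in the liver than in the kidney, so that organ differences are common. Of the 10 members, 4 were higher and 3 lower in the liver. The higher members were Cyp4f15 (log2 9.50, SE 1.46, adjusted p = 0.00019), Cyp4f14 (6.75, SE 0.74), Cyp4v3 (5.81, SE 0.57) and Cyp4a32 (3.25, SE 1.24, adjusted p = 0.055). The lower members were Cyp4a12b (-4.09, SE 0.72), Cyp4a31 (-4.03, SE 0.77, adjusted p = 0.00098) and Cyp4b1 (-1.62, SE 0.48, adjusted p = 0.016). Cyp4a10 (0.83, SE 1.56), Cyp4a14 (0.61, SE 1.10) and Cyp4a12a (-0.36, SE 1.24) did not pass. With the replicate number as a block, Cyp4a12a was called lower in the liver (-2.43, adjusted p = 0.081 by edgeR). Cyp4a32 lost its call in 6 of the 8 fits that left out a liver or kidney library, with adjusted p-values up to 0.17 and differences of 2.72 to 3.797, and with WT or KO libraries only (3.07 and 3.43, adjusted p = 0.243 and 0.194 by edgeR). Cyp4b1 lost its call with WT libraries only (-1.32, adjusted p = 0.193 by edgeR), and without liver WT replicate 2 Cyp4a12a was called lower in the liver (-4.61). With the 3 near copies Cyp4a10, Cyp4a31 and Cyp4a32 summed, the difference was 0.20 (SE 1.47). With the near copies Cyp4a12a and Cyp4a12b summed, it was -1.77 (SE 0.97, adjusted p = 0.196 by edgeR) and was not called.

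Between liver and small intestine, 19.3% of genes were called higher in the liver and 27% lower, against 7 and 2 of the 10 members. Cyp4a14 had the widest difference of the members with counts in both organs (log2 12.68, SE 1.83, adjusted p = 8.0e-05), followed by Cyp4a31 (7.25, SE 1.01), Cyp4f15 (5.93, SE 1.21), Cyp4a10 (5.76, SE 1.90, adjusted p = 0.024) and Cyp4a32 (4.13, SE 1.30). Cyp4a12a and Cyp4a12b made up the 7, with the lower bounds given above. Cyp4f14 (-1.64, SE 0.59, adjusted p = 0.033) and Cyp4b1 (-1.53, SE 0.48, adjusted p = 0.017) were lower in the liver, and Cyp4v3 (0.14, SE 0.46) did not pass. Against the small intestine libraries numbered 1 alone, Cyp4v3 was called higher in the liver (1.54, adjusted p = 0.0023 by edgeR). With WT libraries only, the calls of Cyp4f14, Cyp4b1, Cyp4a10 and Cyp4a32 were lost (adjusted p = 0.171, 0.107, 0.177 and 0.181 by edgeR), with differences of -1.55, -1.49, 4.76 and 3.19. The Cyp4f14 call was also lost with KO libraries only (-1.73, adjusted p = 0.125 by edgeR). The Cyp4b1 call was lost without small intestine WT replicate 2 (log2 -0.63) and was -0.11 against the small intestine libraries numbered 1 alone. That of Cyp4a12a was lost without liver WT replicate 2 or without KO replicate 2, the libraries that hold nearly all of its liver counts, with DESeq2 (adjusted p = 0.19) and with KO libraries only (adjusted p = 0.12 by edgeR).

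Between kidney and small intestine, 22.6% of genes were called higher in the kidney and 23.2% lower, against 5 and 3 of the 10 members. Cyp4a14 (log2 12.07, SE 1.80), Cyp4a31 (11.28, SE 1.12, adjusted p = 3.8e-06) and Cyp4a10 (4.92, SE 1.83, adjusted p = 0.041) were higher in the kidney, as were Cyp4a12a and Cyp4a12b. The Cyp4a12a call was lost with DESeq2 (adjusted p = 0.17) and with KO libraries only (adjusted p = 0.103 by edgeR). Cyp4f14 (-8.39, SE 0.80, adjusted p = 1.7e-06), Cyp4v3 (-5.67, SE 0.57) and Cyp4f15 (-3.57, SE 1.25, adjusted p = 0.030) were lower, while Cyp4a32 (0.88, SE 1.19) and Cyp4b1 (0.08, SE 0.47) did not pass. With the replicate number as a block, Cyp4a32 was called higher in the kidney (4.68, adjusted p = 0.016 by edgeR). The Cyp4f15 difference was -0.33 against the small intestine libraries numbered 1 alone, where its call was lost. Its call was also lost, with a smaller difference, without small intestine WT replicate 2 (-2.14) or KO replicate 2 (-1.81). Without kidney WT replicate 1 (-3.32) or KO replicate 2 (-3.20) the call was lost while the difference stayed about as large. Cyp4a32 was called higher in the kidney without small intestine WT replicate 2 (5.50). Against the small intestine libraries numbered 1 alone, Cyp4b1 (1.497, adjusted p = 0.0039 by edgeR) and Cyp4a32 (adjusted p = 0.0019), which had no count in these libraries, were called higher in the kidney. The Cyp4a10 call was lost without small intestine WT replicate 1 or kidney WT replicate 2, and with WT or KO libraries only (4.27 and 5.58, adjusted p = 0.211 and 0.134 by edgeR). The Cyp4f15 call was also lost with WT or KO libraries only (-3.23 and -3.92, adjusted p = 0.176 and 0.112 by edgeR).

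TMM normalization and TPM place the organs differently. Over the 12389 genes of at least 1 TPM in both organs, the median was 0.74 lower in the liver than in the kidney on the log2 TPM scale. Over all 23159 genes of the fit it was 0.08 lower. Between liver and small intestine the medians were 0.55 lower over 12025 such genes and 0.19 lower in the fit. The gene sets differ, so that these gaps cannot be put down to scaling alone. For the members called in these comparisons with at least 1 TPM in both organs the direction was the same on both scales. It flipped for 2 members that did not pass, Cyp4a14 between liver and kidney (-0.13 on the TPM scale) and Cyp4v3 between liver and small intestine (-0.42).

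Shares within a library do not depend on the scaling between libraries. Each gene's share is its percent of the summed TPM of the 10 members. In the liver Cyp4a14 took 36.1% ± 6.13 and Cyp4a10 35.2% ± 3.75, followed by Cyp4f14 at 10.04% ± 2.61, Cyp4v3 at 9.65% ± 4.37 and Cyp4f15 at 6.40% ± 2.52 (SD, n = 4). In the kidney Cyp4a14 took 41.3% ± 5.52, Cyp4a10 32.9% ± 5.92 and Cyp4a31 20.9% ± 8.70. In the small intestine Cyp4f14 took 75.9% ± 14.4 and Cyp4v3 17.8% ± 9.98, and Cyp4b1 was next at 4.35% ± 2.51. Cyp4a31 thus took a large share in the kidney alone, and Cyp4f15 in the liver alone.

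**Figure D3:**
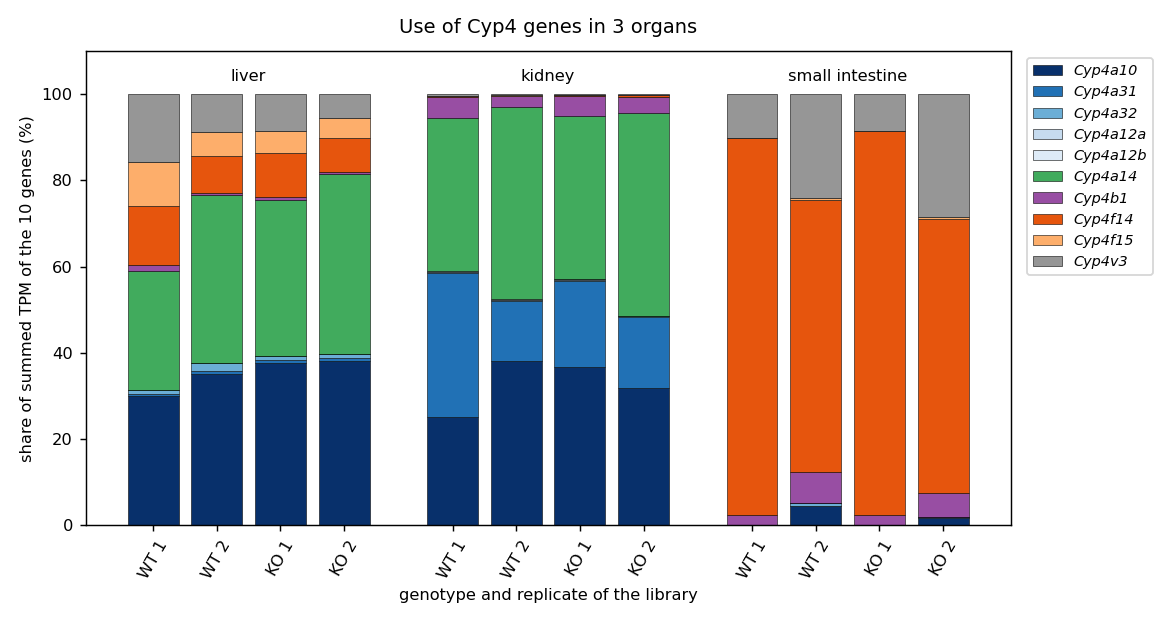
Share of each gene in the summed TPM of the 10 Cyp4 genes (%), as 1 stacked bar per library of liver, kidney and small intestine, named by genotype and replicate. Cyp4a10 and Cyp4a14 fill most of each liver and kidney bar, Cyp4a31 appears as a wide band in the kidney alone, and Cyp4f14 fills at least 63.2% of each small intestine bar.

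By subfamily, the Cyp4a genes made up 73.1% ± 9.80 of the total in the liver, 95.6% ± 1.12 in the kidney and 1.75% ± 2.37 in the small intestine. The Cyp4f pair made up 16.4% ± 5.03, 0.204% ± 0.104 and 76.1% ± 14.2 in the same order. Cyp4v3 made up 9.65%, 0.280% and 17.8%, and Cyp4b1 0.771%, 3.95% and 4.35%. With 4 libraries against 4 the smallest p of an exact two-sided permutation test is 0.0286, and 10 of the 12 comparisons reached it (Benjamini-Hochberg adjusted p = 0.0343 over the 12, exact test). The exceptions were Cyp4b1 between kidney and small intestine (p = 0.80, exact permutation test) and Cyp4v3 between liver and small intestine (p = 0.20, adjusted p = 0.218, exact permutation test). The share of each subfamily split by the replicate number of the small intestine. In WT and KO libraries numbered 1 and then numbered 2, Cyp4f stood at 87.6%, 89.2%, 63.5% and 64.2%. In the same order Cyp4a stood at 0.132%, 0.00513%, 5.09% and 1.77%, and Cyp4b1 at 2.14%, 2.39%, 7.27% and 5.61%. The Cyp4v3 share was 10.2% and 8.44% in the libraries numbered 1 and 24.1% and 28.4% in those numbered 2.

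Within the small intestine, 6 members followed the replicate number more than the genotype. Over 10844 genes, same-numbered small intestine libraries deviated together with r = 0.71, so that this split was not particular to the members. The share of all genes that split in this way is not given here. Cyp4a10 was at 0.461 and 0 TPM in WT and KO replicate 1, the libraries with ileal Fabp6, and at 56.5 and 26.2 in replicate 2, the libraries with Pdx1. Cyp4a32 was at 0 in both replicates numbered 1 and at 7.32 and 2.19 TPM in those numbered 2. Cyp4f15, Cyp4v3 and Cyp4b1, as listed above, were also higher in both libraries numbered 2, and Cyp4a31 was at 0 in both numbered 1 and at 0.793 and 0.0767 TPM in those numbered 2. Cyp4f14 overlapped between the numbers. Cyp4a14, which tracked Cyp4a10 in liver and kidney, was at most 0.655 TPM in any small intestine library, and WT and KO replicate 2 held 2 and 3 counts of it beside 1376 and 573 counts of Cyp4a10. The labels give no gut segment, so these are values of 4 single libraries and were not tested.

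**Figure D4:**
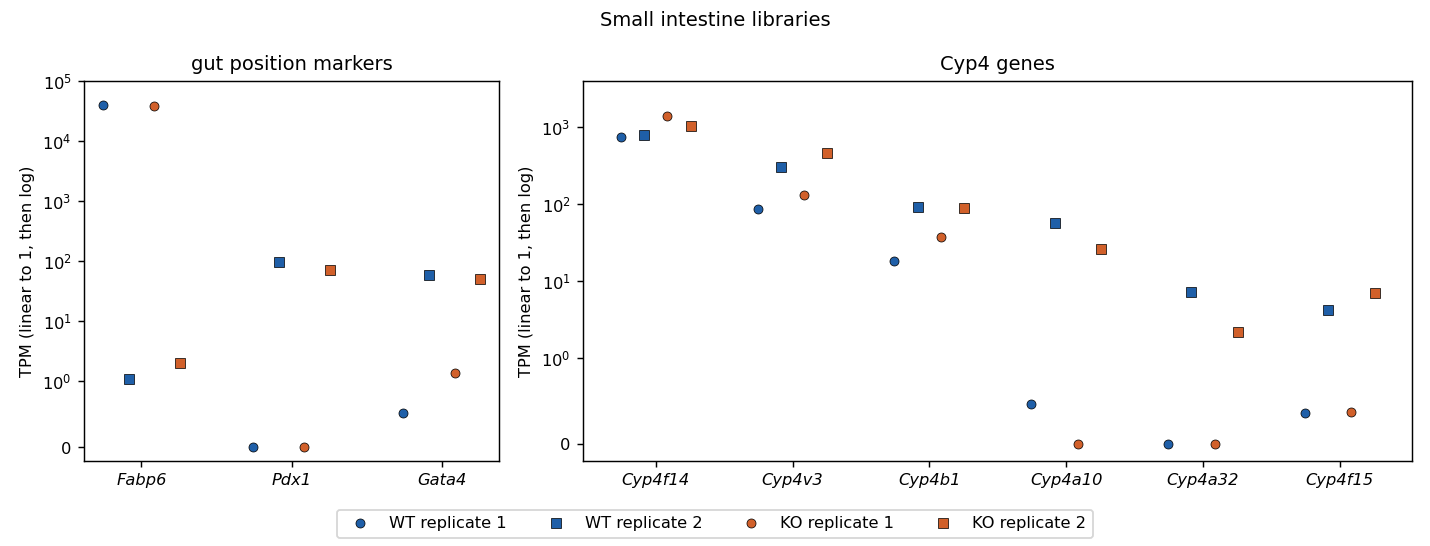
The 4 small intestine libraries (TPM, linear up to 1 and logarithmic above), with the gut position markers Fabp6, Pdx1 and Gata4 on the left and 6 Cyp4 genes on the right, colour for genotype and shape for replicate number. Cyp4v3, Cyp4b1, Cyp4a10, Cyp4a32 and Cyp4f15 were higher in both libraries numbered 2, which hold Pdx1 and Gata4, and Cyp4f14 was not. Same-numbered libraries deviated together over 10844 genes (r = 0.71), so that such a split was not particular to these genes.

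Outside these 3 organs the 10 members were sparse, whereas some other Cyp4 genes, given below, were higher in the spleen. Cyp4b1 made up 87.6% to 92.0% of the heart total and Cyp4v3 most of the rest, and the Cyp4a genes together stayed at or below 1.90% of it. Heart libraries also held lung markers, 155, 406, 32.4 and 158 TPM summed over 10 genes in WT 1, WT 2, KO 1 and KO 2, led by Scgb1a1, with 8 to 10 of the 10 detected, and 791 to 1588 TPM of 10 adipose markers, led by Fabp4. Their part in the Cyp4b1 level was not tested. In the spleen Cyp4v3 and Cyp4b1 led in 3 libraries. In spleen WT replicate 2, Cyp4a14 stood at 60.2 TPM and Cyp4a10 at 44.4, against at most 2.33 and 1.88 in the other 3. These are 7.73% and 5.93% of the mean liver level of the same genes, where Alb in that library was at 2.63% of its liver mean.

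The second question was whether the loss of Nsun6 changed these genes. No member was called in any organ. In each organ the 2 KO libraries were compared with the 2 WT libraries by edgeR's quasi-likelihood test over all genes, with the thresholds above. In the liver 0.0509% of 15729 genes and 0 of 9 members tested were called, and in the spleen 0.223% of 18834 genes and 0 of 6 members. In the small intestine, kidney and heart 0% of genes were called, and 6, 9 and 2 members were tested. The other members were too low to test: Cyp4a12b in the liver, Cyp4f15 in the kidney, Cyp4a31, Cyp4a12a, Cyp4a12b and Cyp4a14 in the small intestine, Cyp4a32, Cyp4a12a, Cyp4a12b and Cyp4f15 in the spleen, and all but Cyp4b1 and Cyp4v3 in the heart. At an unadjusted p under 0.05 edgeR held 1 member, Cyp4f14 in the kidney, beside 0.638% of all genes there, 4.7% in the liver, 2.39% in the small intestine, 5.14% in the spleen and 0.703% in the heart. DESeq2 called 0.403% of genes in the liver, 0% in the kidney, 0.408% in the small intestine, 1.32% in the spleen and 0.012% in the heart, and no member. At an unadjusted p under 0.05 DESeq2 held Cyp4a10 in the liver, beside 4.06% of all genes, and Cyp4f14 in the spleen and the kidney, beside 5.47% and 0.661%, and no member in the small intestine (3.78%) or the heart (0.806%). These DESeq2 shares are of all genes with a p-value (15729 in the liver), and those of calls are of the genes to which DESeq2 gave an adjusted p (13899 in the liver). The spread between libraries sets what could be called. The biological coefficient of variation, the typical relative spread of a gene between libraries of a group, was lowest in the liver, at 0.238, followed by the spleen (0.310), the heart (0.322), the kidney (0.457) and the small intestine (0.602). A missed call, above all in the small intestine and the kidney, does not show that a gene did not differ.

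In the liver the estimates for Cyp4a10 and Cyp4a14 were positive and did not pass. Cyp4a10 had a log2 fold change of 0.76 (SE 0.40, adjusted p = 0.999 by edgeR) and Cyp4a14 of 0.74 (SE 0.50). WT replicate 2 was close to KO replicate 1 in both, at 744 against 753 TPM for Cyp4a10 and at 828 against 723 for Cyp4a14, and on TMM-normalized CPM the genotypes overlapped. WT replicate 1 was the lowest library of Cyp4a10, Cyp4a14, Cyp4a31 and Cyp4a32. Without WT replicate 2, so that WT replicate 1 alone stood for the WT, all 4 were called, at 1.51, 1.69, 1.82 and 1.14, beside 1.16% of all genes. Without WT replicate 1 none was called. Cyp4f14 (0.36, SE 0.21) was higher in both KO libraries than in both WT libraries, as were 16.6% of the genes tested, and Cyp4v3 (-0.16, SE 0.21) was lower in both, as were 16.9%. Cyp4f15 (0.06, SE 0.20) overlapped between genotypes, as did Cyp4b1, whose estimate was 0.0047 (SE 0.24) and changed sign with the normalization.

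In the kidney Cyp4f14 had the widest fold change, at a low level. It stood at 1.83 and 1.77 TPM in WT and at 4.21 and 7.40 in KO, or 41, 47, 100 and 175 counts, with a log2 fold change of 1.62 (SE 0.57, unadjusted p = 0.033 and adjusted p = 0.9999 by edgeR). Cyp4b1 (0.58, SE 0.40) was also higher in both KO libraries, as were 10.7% of genes, and Cyp4a12a (-0.94, SE 0.65) was lower in both, as were 10.6%. Cyp4a10 (0.07, SE 0.80), Cyp4a14 (0.11, SE 0.75) and Cyp4a31 (0.14, SE 0.39) overlapped. Without WT replicate 2, 4 members were called (Cyp4a10 at 1.79, Cyp4a14 at 1.59, Cyp4b1 at 1.12 and Cyp4f14 at 2.02) beside 2.37% of all genes. Without WT replicate 1 it was Cyp4f14 alone, at 1.32, beside 16.1% of all genes, while Cyp4a10 turned to -0.68 and Cyp4a14 to -0.60.

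In the small intestine the genotypes overlapped for 5 of the 6 members tested. Cyp4f14 (log2 0.51, SE 0.46) was higher in both KO libraries, as were 13.8% of genes, while 11.4% were lower in both and no member was. The remaining fold changes had standard errors from 1.03 for Cyp4b1 (0.06) to 2.87 for Cyp4a10 (-1.23). These errors come from a fit without the replicate number, so that the differences between the numbers are part of them. With the number as a block 0 of the 6 members and 0 of all 17680 genes were called, and the smallest adjusted p of a member was 0.857 by edgeR. Within a number, Cyp4v3 was higher in KO both times (86.1 in WT and 133 TPM in KO replicate 1, 306 and 458 in replicate 2), and Cyp4a10 was lower both times (0.461 and 0, 56.5 and 26.2). Cyp4b1 was higher in KO in number 1 (18.1 and 37.6) and slightly lower in number 2 (92.3 and 90.5). Cyp4f15 was higher in KO in number 2 (4.25 and 6.96) and near equal in number 1, with 10 counts in WT and 8 in KO.

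Marker lists of other cell types had fold changes of mostly 1 sign in some organs, with sums given for WT 1, WT 2, KO 1 and KO 2. In the small intestine all 6 smooth muscle markers had positive fold changes (median log2 2.27), with the sums given above, as did the 7 of 8 heart muscle markers tested (median 4.29). Heart muscle markers summed to 8.21, 9.73, 521 and 14.1 TPM there, with 7 or 8 of the 8 detected and Myl2 the most abundant in KO replicate 1. All 8 lymphocyte markers had negative fold changes (median -2.35), while their sums of 372, 47.0, 6.94 and 88.8 TPM, led by Cd79b or Cd3d with 6 to 8 detected, overlapped between the genotypes. Of 11 hepatocyte markers 10 had negative fold changes (median -1.36), but Apoa1, which makes up most of their sum and is also an enterocyte gene, gave sums of 9352, 15840, 15936 and 27292 TPM. In the kidney the 9 of 10 adipose markers tested had negative fold changes (median -1.88), with sums of 267, 242, 190 and 109 TPM led by Fabp4 and 7 to 10 detected. In the liver the 5 of 8 heart muscle markers tested had negative fold changes (median -3.13), with sums of 22.9, 3.32, 1.08 and 0.976 TPM, led by Myl2 or Tnni3 with 5 to 7 detected. None of these markers was called. At an unadjusted p under 0.05 by edgeR, 6 smooth muscle and 3 heart muscle markers passed in the small intestine, beside 2.39% of all genes. In the liver the 5 heart muscle markers passed, beside 4.7% of all genes. No lymphocyte or hepatocyte marker passed in the small intestine, and no adipose marker in the kidney. The part of all these markers in the Cyp4 values was not tested.

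In the spleen and the heart few members could be tested. Spleen Cyp4v3 (log2 -0.40, SE 0.21) was lower in both KO libraries, as were 14.9% of genes, and no member was higher in both, against 16.6%. Spleen Cyp4a10 (-3.65, SE 3.11), Cyp4a14 (-3.74, SE 3.39) and Cyp4f14 (-2.55, SE 1.30) had their highest value in WT replicate 2, the library with hepatocyte markers. Without that library Cyp4a10 and Cyp4a14 were instead called higher in KO, beside 1.35% of all genes, from 2 and 0 counts in WT replicate 1. Without WT replicate 1, Cyp4a10, Cyp4a14, Cyp4f14 and Cyp4f15 were called lower in KO, by 4.65, 4.74, 3.45 and 4.71 on the log2 scale, beside 1.86% of all genes. With no filter on low counts Cyp4f14 was called lower in KO (-2.55), beside 1.04%. Heart Cyp4b1 (0.32, SE 0.27) was higher in both KO libraries on TMM-normalized CPM, as were 7.64% of genes, and 9.51% of genes but no member were lower in both.

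**Figure D5:**
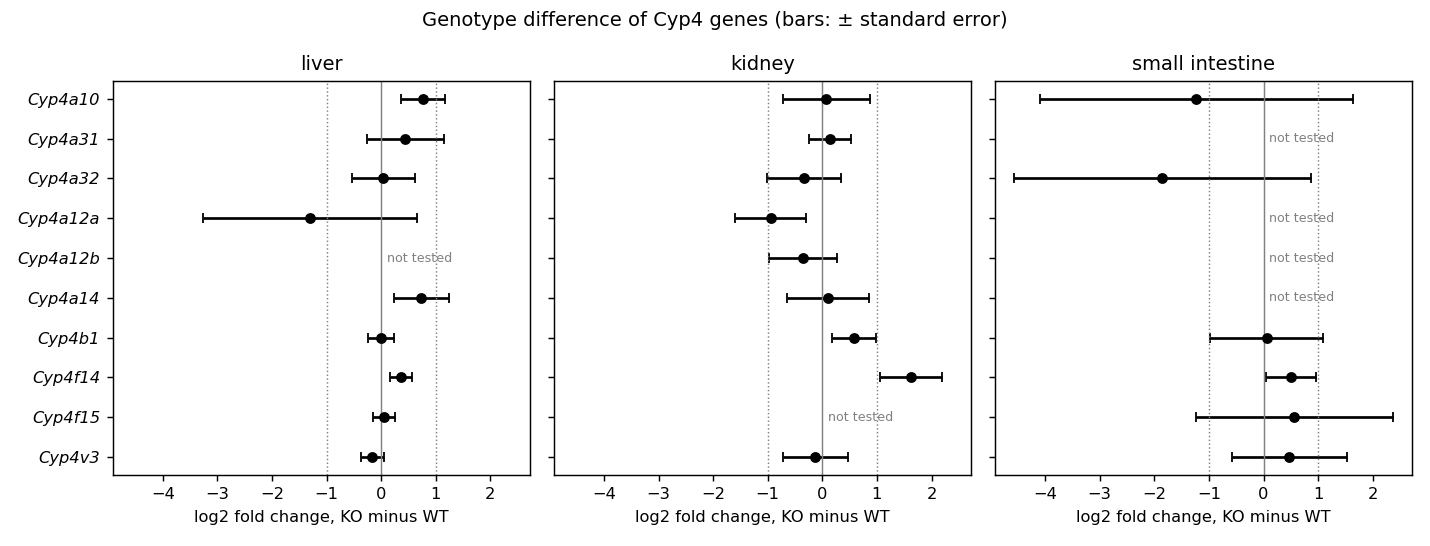
Log2 fold change of each Cyp4 gene, KO minus WT, in liver, kidney and small intestine (points, with bars of 1 standard error; dotted lines at a fold change of 2). Cyp4f14 in the kidney (1.62) lies past the line on the positive side, Cyp4a12a in the liver (-1.30) and Cyp4a10 (-1.23) and Cyp4a32 (-1.85) in the small intestine past that on the negative side with wide bars, and none of these genes was called after adjustment over all genes.

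The difference of the genotype effect between organs was tested in the fit of all libraries. For liver against kidney, liver against small intestine and kidney against small intestine, 0% of 23159 genes and 0 of 10 members were called, and no member had an unadjusted p under 0.05 by edgeR. The widest differences were those of Cyp4a31 against the small intestine, 3.78 (SE 2.095) in the liver and 3.49 (SE 2.099) in the kidney. With no filter on low counts Cyp4a31 was called in both, at 3.76 and 3.46, beside 0.885% and 0.8% of 36620 genes. Its small intestine values there rest on 0, 23, 0 and 2 counts.

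The partners of the Cyp4 enzymes were read from lists of textbook genes. Among 6 electron donors, 4 were called higher in the liver than in the kidney and none lower: Cyb5r3 (log2 2.38, SE 0.72), Cyb5r2 (2.06, SE 0.89), Cyb5a, encoding cytochrome b5 (1.86, SE 0.38), and Por, encoding P450 oxidoreductase (1.47, SE 0.50). Of all genes 13.6% were called higher and 21.1% lower, and the list median was 1.67, against -0.08 for all genes. Cyb5a was the most abundant of them in both organs, at 1518 ± 153 TPM in the liver and 723 ± 91.5 in the kidney. Cyb5r2 was very low, at a mean of 0.227 TPM in the liver, 0.145 in the kidney and 0.432 in the small intestine. On the TPM scale liver and kidney libraries overlapped for Cyb5r2 and Por. Against the small intestine Por (1.33) and Cyb5a (2.75) were called higher in the liver. In the kidney 3 were called lower than in the small intestine, namely Cyb5r2 (-2.34), Cyb5r3 (-2.17) and Cyb5b (-1.55). Of all genes 19.3% were called higher in the liver than in the small intestine, and 23.2% lower in the kidney. The list medians against the small intestine were 0.27 in the liver and -0.84 in the kidney, beside -0.19 and 0.00 for all genes. No electron donor was called by genotype in the liver, kidney or small intestine.

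Of 9 PPARalpha regulators, Rxra, its dimer partner (2.83, SE 0.30), and Ppara itself (1.94, SE 0.51) were called higher in the liver than in the kidney, and the coactivator Ppargc1a (-1.86, SE 0.38) and the corepressor Nrip1 (-1.10, SE 0.19) lower. Ppara stood at 25.2, 23.7, 25.8 and 29.9 TPM in the liver and at 19.6, 7.17, 10.04 and 13.9 in the kidney, with no overlap. Against the small intestine, Ppara (2.77) and Rxra (1.63) were higher in the liver and Ppargc1a, Ppargc1b and Nrip1 lower, by 1.57, 1.25 and 2.28, and in the kidney Rxra and Nrip1 were lower, by 1.19 and 1.18. Med1, Ncoa1, Ncor1 and Rxrb were not called in these comparisons. The list medians were -0.13, -0.74 and -0.61 for liver against kidney, liver against small intestine and kidney against small intestine. Those of all genes were -0.08, -0.19 and 0.00. Of all 23159 genes, 3157 were called higher and 4889 lower in the first comparison, 4459 and 6257 in the second and 5233 and 5362 in the last. None of the 9 was called by genotype in liver, kidney or small intestine, and the fold changes in the liver were 0.37 (SE 0.20) for Ppara and -0.83 (SE 0.30) for Ppargc1a, which alone of the 9 passed an unadjusted threshold of 0.05 there.

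Of 34 other PPARalpha target genes, 15 were called higher and 1 lower in the liver than in the kidney, 19 and 2 against the small intestine, and 11 and 3 in the kidney against the small intestine. Of all genes, 13.6% were called higher and 21.1% lower in the first of these comparisons, 19.3% and 27% in the second and 22.6% and 23.2% in the last. The median differences of the list were 1.02, 1.40 and 0.51, against -0.08, -0.19 and 0.00 for all genes. Fabp1, the liver fatty acid binding protein, was the most abundant in the liver at 27323 ± 5675 TPM, and Acadm, a mitochondrial acyl-CoA dehydrogenase, in the kidney at 1056 ± 411. Fabp1 also had the highest mean in the small intestine, at 13235 ± 15175 TPM. That mean pools both gut positions, with single libraries from 54.6 to 29985 TPM. By genotype none of these genes was called in the 3 organs. In the liver 25 of 34 had a positive fold change with a median of 0.19, against 0.00 for all genes. Hepatocyte markers had positive fold changes there in 10 of 12 cases, with a median of 0.22, while their sums, led by Alb, were 208521, 295182, 273250 and 264357 TPM in WT 1, WT 2, KO 1 and KO 2 and overlapped, and their part in the target genes was not tested. In the liver the smallest p-values belonged to the fatty acid transporter Cd36 (-0.48, SE 0.22) and Fabp1 (0.69, SE 0.32). In the kidney they belonged to Acadvl (0.63, SE 0.27) and Fabp1 (-1.01, SE 0.57), and in the small intestine to Acot4 (0.74, SE 0.27) and Mgll (0.84, SE 0.33).

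Of 18 genes downstream in omega-oxidation, 12 were called higher and 1 lower in the liver than in the kidney, 12 and 2 against the small intestine, and 5 and 4 in the kidney against the small intestine. The shares of all genes called were those given for the PPARalpha targets, and the list medians of 1.65, 2.05 and -0.14 stood against -0.08, -0.19 and 0.00. The alcohol dehydrogenase Adh1 led in the liver at 1621 ± 110 TPM and the acyl-CoA synthetase Slc27a2 in the kidney at 1804 ± 92.6. The aldehyde dehydrogenase Aldh1a1 was 6.89 higher in the liver than in the kidney (log2, SE 0.40) and 4.63 lower in the kidney than in the small intestine (log2 -4.63, SE 0.36). None was called by genotype, the smallest p-values being those of Aldh3b1 (0.95, SE 0.36) and Acot8 (0.47, SE 0.23) in the liver, Acot8 (0.39, SE 0.37) and Abcd3 (-0.46, SE 0.47) in the kidney and Aldh1a1 (0.33, SE 0.37) and Acaa1b (1.22, SE 1.90) in the small intestine.

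Of 20 eicosanoid enzymes and receptors in the table, 4 were called higher and 6 lower in the liver than in the kidney, 5 and 9 against the small intestine, and 4 and 8 in the kidney against the small intestine. Beside the same shares of all genes, the list medians were -0.43, -1.13 and -0.94. Hpgd, which inactivates prostaglandins, was 3.14 higher in the liver than in the kidney (log2, SE 0.35), and Ptges, a prostaglandin E synthase, was 3.95 lower (log2 -3.95, SE 0.55). Lta4h, which makes leukotriene B4, was lower than in the small intestine by 2.38 in the liver and by 2.20 in the kidney. The most abundant genes were the epoxygenase Cyp2j5 in the liver (906 ± 59.4 TPM) and the kidney (2296 ± 303) and Hpgd in the small intestine (621 ± 267). None was called by genotype. The smallest p-values were those of Cyp2c29 (0.58, SE 0.30) and Ptgds (-0.71, SE 0.41) in the liver, Ptges (0.41, SE 0.34) and Ptgds (0.59, SE 0.52) in the kidney, and Ptgs1 (1.44, SE 0.35) and Alox5ap (2.75, SE 0.71) in the small intestine.

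Since Cyp4a12a is sex-biased, lists of sex-biased liver genes were read as well. Of 14 female-biased genes, 5 were called higher in KO liver and none lower: Sult3a2 (log2 4.40), A1bg (3.70), Sult3a1 (2.40), Cyp3a41a (1.87) and Cux2 (1.59), with a list median of 1.09 against 0.00 for all genes and beside 0.0509% of all genes called in either direction. Of 10 male-biased genes none was called, with a median of 0.12, and Cyp4a12a itself (-1.30, SE 1.96) did not pass. The list was chosen with results of these data already known and its count is no independent evidence, the 5 were named after their values were seen, and Cyp3a41a has near-identical relatives.

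Of the 18 other Cyp4 genes and pseudogenes, 8 reached 1 TPM in an organ mean. Cyp4f16 and Cyp4f40 added to the Cyp4f total of the small intestine. Cyp4f16 stood there at 141, 202, 263 and 321 TPM, and at most at 4.42 in the liver and 9.24 in the kidney (liver minus small intestine log2 -5.54, SE 0.35, adjusted p = 2.0e-08). Cyp4f40 stood at 130, 40.3, 168 and 38.7 TPM in the small intestine, higher in the libraries numbered 1, which is the reverse of Cyp4a10, and at most at 0.0869 in liver or kidney. Cyp4f18, the neutrophil leukotriene B4 hydroxylase, was a spleen gene at 103, 105.4, 90.7 and 68.0 TPM. The pseudogene Cyp4b1-ps2 was at 50.5, 60.6, 135 and 143 TPM in the spleen and at most at 3.18 in any other library. Cyp4f13 (38.4 ± 8.35 TPM in the small intestine, 21.6 ± 2.24 in the liver and 16.1 ± 7.63 in the kidney) and Cyp4f17 (2.55 ± 0.778, 8.30 ± 2.35 and 10.4 ± 8.004) were found in every organ, Cyp4f41-ps reached 1.79 TPM in the kidney and Cyp4f37 1.16 in the spleen. None of the other Cyp4 genes tested was called by genotype in any of the 5 organs. The closest was Cyp4b1-ps2 in the spleen (log2 1.47, SE 0.24, adjusted p = 0.12 by edgeR), which was higher in both KO libraries, as were 16.6% of genes.

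Genes whose library-to-library pattern was most like each member were sought over the 12 libraries of liver, kidney and small intestine, as Pearson's r of log2 CPM after the organ means were removed. The libraries share depth and, in the small intestine, gut position, and the highest of 8434 to 10876 genes were taken, so that r is a description. Cyp4a32 was closest to Ncoa4 (r = 0.988), Cyp4f15 to Slc25a3 (0.992) and Cyp4v3 to Hadh, Degs1 and Cd36 (0.978, 0.974 and 0.974). Cyp4a10 was closest to Tbc1d31 and Pex19 (both 0.979), Cyp4a14 to Pa2g4 (0.964), Cyp4a31 to Glt28d2 (0.938), Cyp4b1 to Pkm (0.969) and Cyp4f14 to Ccdc124 (0.863). Cyp4a12a (Slc22a28, 0.870) and Cyp4a12b (Polr2m, 0.923) rest on low counts. In bulk tissue, a change in the number of cells of a type and a change in RNA per cell cannot be told apart, and this holds for each value above.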

How the data were processed

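RNA-seq of 5 organs gave 20 libraries in 10 groups of 2. The authors trimmed reads with cutadapt, mapped them with HISAT2 2.1.0 to mm10 and deposited whole-number counts per gene from featureCounts 2.0.1. The methods state reverse-stranded, paired counting, but neither option is in the featureCounts command line kept in the file header. The gene length in bases (other column used) was deposited by the authors in the same table. From these, TPM and shares were computed, and counts were tested with edgeR 4.0.16 in R 4.3.3 (quasi-likelihood test, TMM, filterByExpr, Benjamini-Hochberg adjustment), checked first on simulated data. DESeq2 1.42.0 and limma 3.58.1 (log2 TPM plus a pseudocount of 0.1) were alternatives, with other filters, single libraries left out and paralogs summed. Shares were compared by exact permutation with scipy 1.17.1. Named were all members, other Cyp4 genes reaching 1 TPM in an organ mean, the regulators and electron donors, of each other list the most abundant gene and those with the smallest p, and the genes most alike, of at least 5 CPM. The members and lists were chosen with earlier results of these data known. All depth statements cover counting error only.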

Additional observations from a re-analysis of the deposited data

How the results depend on the processing

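With 2 libraries a group, leaving out 1 library leaves a lone sample that is assumed to vary like the others. The number of members called by genotype then ranged from 0 to 4 each for liver, kidney and spleen, and with no filter on low counts 1 was called in the spleen and 1 in each interaction with the small intestine. With near-identical paralogs summed, 1 feature was lower in the liver than in the kidney, 4 were higher in the liver and 3 in the kidney than in the small intestine. Members lower in the liver than in the small intestine numbered 0 with WT libraries only, 1 with KO libraries only, 1 to 2 with a library left out and 1 against the small intestine libraries numbered 1. Members higher in the kidney than in the small intestine numbered 3 with KO libraries only. Fits with WT or KO libraries only hold fewer libraries, and the shares of all genes called in these organ comparisons are not given here. These counts therefore do not set the members apart from all genes.

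The use of the small intestine libraries numbered 1 or 2 alone was chosen after seeing the data. With numbers 1 and 2 in turn, the share differences in percentage points were -1.49 and -5.67 for Cyp4b1 and -71.9 and -47.4 for Cyp4f between liver and small intestine, 0.346 and -16.6 for Cyp4v3 there, and 1.69 and -2.49 for Cyp4b1, -88.2 and -63.6 for Cyp4f and -9.02 and -26.0 for Cyp4v3 between kidney and small intestine. The Cyp4b1 difference between kidney and small intestine was 0.0628 with CPM shares and -1.14 to 0.573 with a library left out. The Cyp4a10 share of the liver was 29.9% with CPM shares.

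Signs turned, among values not called with all libraries, for liver Cyp4b1 by genotype (DESeq2 -0.0043, RLE -0.0045, no filter -0.0051, limma -0.16), liver Cyp4f15 (limma -0.14) and kidney Cyp4v3 (replicate block 0.049, limma 0.080). They turned between liver and small intestine for Cyp4v3 (KO only -0.19, libraries numbered 2 -0.57, against a called 1.54 with those numbered 1), and between kidney and small intestine for Cyp4a32 (libraries numbered 2 -0.13, called higher in the kidney with those numbered 1) and Cyp4b1 (DESeq2 -0.0086, RLE -0.0084, WT only -0.17, libraries numbered 2 -0.60, called at 1.497 with those numbered 1). The cause was not tested.

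With a library left out, log2 fold changes by genotype ranged in the small intestine from -12.68 to 5.05 for Cyp4a10, -9.26 to 7.39 for Cyp4a32, -1.01 to 1.97 for Cyp4b1, -3.10 to 3.57 for Cyp4f15 and -1.001 to 1.95 for Cyp4v3. They ranged in the liver from -0.26 to 1.82 for Cyp4a31, -0.59 to 1.14 for Cyp4a32, -4.75 to 6.86 for Cyp4a12a, -0.20 to 0.25 for Cyp4b1 and -0.14 to 0.23 for Cyp4f15. They ranged in the kidney from -0.68 to 1.79 for Cyp4a10, -0.11 to 0.48 for Cyp4a31, -0.94 to 0.73 for Cyp4a32, -0.83 to 0.41 for Cyp4a12b, -0.60 to 1.59 for Cyp4a14 and -0.70 to 0.83 for Cyp4v3. Organ differences ranged from -4.61 to 0.14 for Cyp4a12a between liver and kidney, -0.22 to 0.82 for Cyp4v3 between liver and small intestine and -0.31 to 0.98 for Cyp4b1 between kidney and small intestine.

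Same-numbered libraries deviated together with r = 0.12 for liver, 0.34 for kidney, 0.71 for small intestine, -0.018 for spleen and 0.56 for heart, over genes and with 2 pairs an organ. In the small intestine same-numbered libraries also shared the gut position markers. In the heart both libraries numbered 2 carry the label pre in their column names, whose meaning is not stated. They held 36090637 (WT) and 41763236 counts (KO), against 17959542 and 15897446 in those numbered 1. The part of these differences in the heart r was not tested. In liver, kidney and spleen same-numbered libraries are known to share only a number. With the replicate block 0 members were called by genotype, Cyp4a12a was called lower in the liver than in the kidney (-2.43) and Cyp4a32 higher in the kidney than in the small intestine (4.68).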
